A study of Mus musculus with 661 samples.

Results

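The cells described here are the cartilage-like clusters M3 and M4 of sorted mouse bone stroma, set against the osteoprogenitor cluster M5. They carry the labels 3, 4 and 5 of the authors' clustering of cells that are not endothelial, made with the ICGS method. The paper pools M3, M4 and M5 in a single osteoprogenitor group, called OPr-like. It ascribes both osteoblastic and chondrogenic genes to M3 and M4, and takes their matrix genes as a sign of more mature osteogenic cells. The contrast of cartilage-like M3 and M4 with osteoprogenitor M5 is made here and is not the authors' own. Cells with 1000 CPM or more (CPM, counts scaled to a common total of nuclear gene counts) of Il1b, an inflammatory cytokine of myeloid cells, were left out. The members were therefore selected on measured values, both through the cluster labels and through Il1b. In all 86 of the 661 cells of the series were taken: 16 of M3, 13 of M4 and 57 of M5, so that M3 and M4 together hold 29.

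Mitchell and coworkers sorted stromal cells from bones of young and old C57BL/6 mice and sequenced them singly in wells with a protocol based on Smart-Seq2. The 4 mesenchymal gates were all Ter119-negative, CD45-negative and CD31-negative. OPr cells came from the bone surface and were Sca-1-negative and CD51-positive without PDGFRα or LepR, whereas mOPr cells from the same place carried PDGFRα and no LepR. MSC-S cells of the bone surface carried Sca-1 and CD51, and MSC-L cells from the central marrow carried PDGFRα and LepR. No treatment or engineered allele is named for the groups used here. The labels name no mouse, so each cluster counts as 1 sample, and differences between animals cannot be told apart from differences between cells.

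Chondrocytes lay down a matrix of type II, IX and XI collagens and the proteoglycan aggrecan, under the transcription factor SOX9 with its partners SOX5 and SOX6. Osteoblasts arise from progenitors that use RUNX2 and then SP7, and make type I collagen, alkaline phosphatase (*Alpl*) and mineral-binding proteins. Chondrocytes of the growth plate that near their end switch on type X collagen and several genes of bone formation, RUNX2 among them.

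Levels are counts summed over the cells of a cluster, as CPM with a 95% Poisson interval. Shares of cells carry exact binomial intervals, and both kinds cover counting error only, since reads were not collapsed to molecules and cells cannot be tied to a mouse. Several mice of each age were used according to the paper. A cell carries a gene at 10 CPM or more. Library numbers in the cell names fall into a lower and a higher range, called range 1 and range 2. Ratios are log2 ratios of CPM + 1, a scale on which differences of low genes come out smaller. The clusters were built from these same counts, so the values are a description and no test was made. Of the 496 guide genes that the authors list for the clusters, 480 are in the count file, and the number of guide genes is given with each list that holds any.

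The Il1b threshold took 8 of 65 M5 cells and none of M3 or M4. The 8 were all old OPr cells, with Il1b from 1229 to 29523 CPM, the lowest values being 1229, 2388 and 5891. Just inside the threshold were a cell of M5 at 61.5, a cell of M4 at 13.0 and a cell of M5 at 12.6. No Il1b count was seen in 14 of 16 M3, 11 of 13 M4 and 47 of 57 M5 cells. The values left a wide gap between the cells kept and the cells left out. The cells left out carried 10 to 15 of 20 hematopoietic genes (median 13.0), against at most 1 in M3 and M4 and at most 6 in M5.

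The clusters differ in age and gate. M3 holds 15 young cells and 1 old cell, all 16 sorted as OPr (100.0%, 79.4% to 100.0%). M4 holds 9 young and 4 old cells, with 10 OPr, 2 MSC-S and 1 mOPr. M5 is mixed, with 31 young (54.4%, 40.7% to 67.6%) and 26 old cells from 21 OPr (36.8%, 24.4% to 50.7%), 19 mOPr, 13 MSC-S and 4 MSC-L. In M3 and M4 together, 24 cells are young (82.8%, 64.2% to 94.2%) and 26 are OPr (89.7%, 72.6% to 97.8%).

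Depth differs as well. Total counts per cell, as lowest, median and highest, were 352349, 701566 and 949551 in M3, 176465, 736116 and 1275505 in M4 and 58034, 394695 and 1168443 in M5. Genes with a count numbered 5569, 7866 and 9453 in M3, 4038, 5570.0 and 7724 in M4 and 948, 4236 and 8156 in M5. M3 cells thus showed the most genes and M5 cells the fewest, with overlap among all 3 clusters. At 100000 counts per cell the medians were 5904, 4410.0 and 3396, with 4 cells of M5 too shallow to be thinned. The mitochondrial share had medians of 1.54%, 1.09% and 1.88%, and ran from 0.0148% to 13.1% in M5. The part of depth and cell quality in the differences below was not tested beyond the alternatives given at the end.

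The label was first held against its markers, of which *Col2a1* encodes type II collagen, the main fibrillar collagen of cartilage, and is a guide gene. *Col2a1* had 58347 CPM in M3 (58203 to 58492; lowest, median and highest cell 620.0, 49159 and 109829.6). M4 had 7409 (7354 to 7465; 609.5, 4490.4 and 18483) and M5 274 (268 to 281; 0, 3.88 and 5149). The 29 cells of M3 and M4 were all high, whereas 19 of 57 M5 cells (33.3%, 21.4% to 47.1%) carried it and 1 of them gave 58.1% of the M5 counts. The groups overlapped slightly, with 4 M5 cells above the lowest cell of M3. The log2 ratio to M5 was 6.98 for M3 and M4 together, 7.73 for M3 and 4.75 for M4.

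*Matn3*, a cartilage matrilin that links matrix fibrils, was highest in M3. It had 2873 CPM in M3 (2841 to 2905; cells 84.6, 3072 and 5799.8), 197 in M4 (188 to 207; 0, 1.32 and 1068) and 25.4 in M5 (23.5 to 27.5; 0, 0 and 1163). All 16 M3 cells carried it, against 6 of 13 in M4 (46.2%, 19.2% to 74.9%) and 2 of 57 in M5 (3.51%, 0.428% to 12.1%). In M5 a single cell gave 97.7% of the counts, and that cell alone lay within the M3 range. The ratio to M5 was 5.95 for M3 and M4 together, 6.76 for M3 and 2.91 for M4, and the M4 value came within 4-fold in range 2 (1.89), in OPr cells (1.91) and in young OPr cells (1.56).

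*Wif1*, a secreted Wnt inhibitor, was higher in M4 than in M3 and M5. M4 cells had 3812 CPM (3772 to 3852; cells 16.0, 1688 and 9258), M3 108 (cells 0, 1.18 and 1135) and M5 208 (203 to 214; 0, 0 and 1947). All 13 M4 cells carried it, against 3 of 16 M3 cells and 12 of 57 M5 cells, and 1 cell gave 91.2% of the M3 counts. The 12 carrying M5 cells all lay above the lowest M4 cell, and no M5 cell passed the highest. The log2 ratio of M3 to M4 was -5.13, and that of M3 and M4 together to M5 was 3.12, or 1.70 in young OPr cells.

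*Alpl*, the alkaline phosphatase of mineralising cells and the osteoprogenitor marker of the rule, went against the label in M3. It had 1895 CPM in M3 (1869 to 1921; cells 0, 401 and 7251), 117 in M4 (109.9 to 124; 0, 0 and 1191) and 460.5 in M5 (452 to 469; 0, 0 and 4947). M3 carried it in 15 of 16 cells (93.8%, 69.8% to 99.8%), M5 in 18 of 57 (31.6%, 19.9% to 45.2%) and M4 in 2 of 13 (15.4%, 1.92% to 45.4%), with 80.2% of the M4 counts in 1 cell. The 3 ranges overlap from 0 upward. Against M5 the log2 ratio was 2.04 for M3 and -1.97 for M4, and the M3 value fell below the 4-fold mark under 6 of the alternatives, to 0.77 in library-number range 1.

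Counted per cell, the 12 chondrogenic markers of the design (10 of them guide genes) set the clusters apart more clearly than the 9 osteoprogenitor and osteoblast markers. M3 cells carried 11 to 12 of the chondrogenic markers (median 11.5), M4 cells 9 to 11 (median 10.0) and M5 cells 0 to 11 (median 2.00), with 10 M5 cells carrying none. Only 2 of 57 M5 cells reached 10, and both were young OPr cells. Of the osteoprogenitor and osteoblast markers, M3 cells carried 2 to 6 (median 4.00), M4 cells 1 to 4 (median 2.00) and M5 cells 0 to 9 (median 3.00). So M5 holds both the cell with all 9 and 4 cells with none, and its typical cell carried fewer than a typical M3 cell. The name osteoprogenitor therefore describes some M5 cells by these markers and not others, and the cluster is called M5 below.

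**Figure D1:**
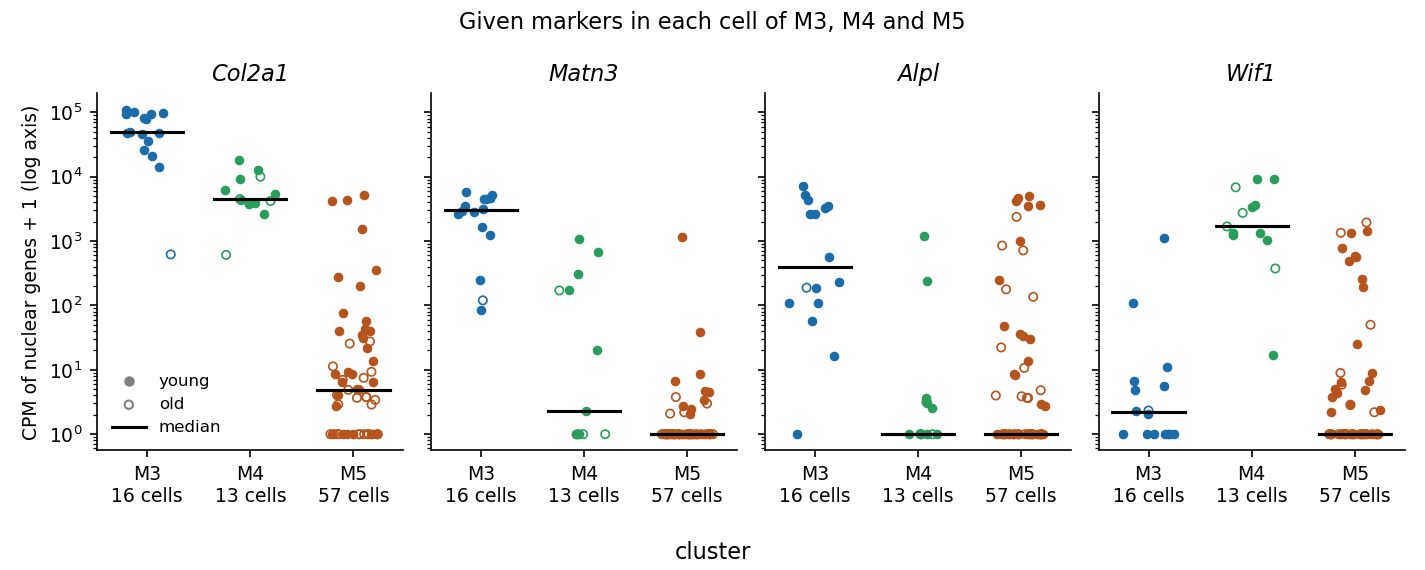
CPM + 1 of *Col2a1*, *Matn3*, *Alpl* and *Wif1* on a log axis in each cell of M3 (16 points), M4 (13) and M5 (57). *Col2a1* is high throughout M3 and M4, *Matn3* in M3 (16 of 16 cells at 10 CPM or more), *Wif1* in M4 (13 of 13) and *Alpl* in M3 (15 of 16).

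**Figure D2:**
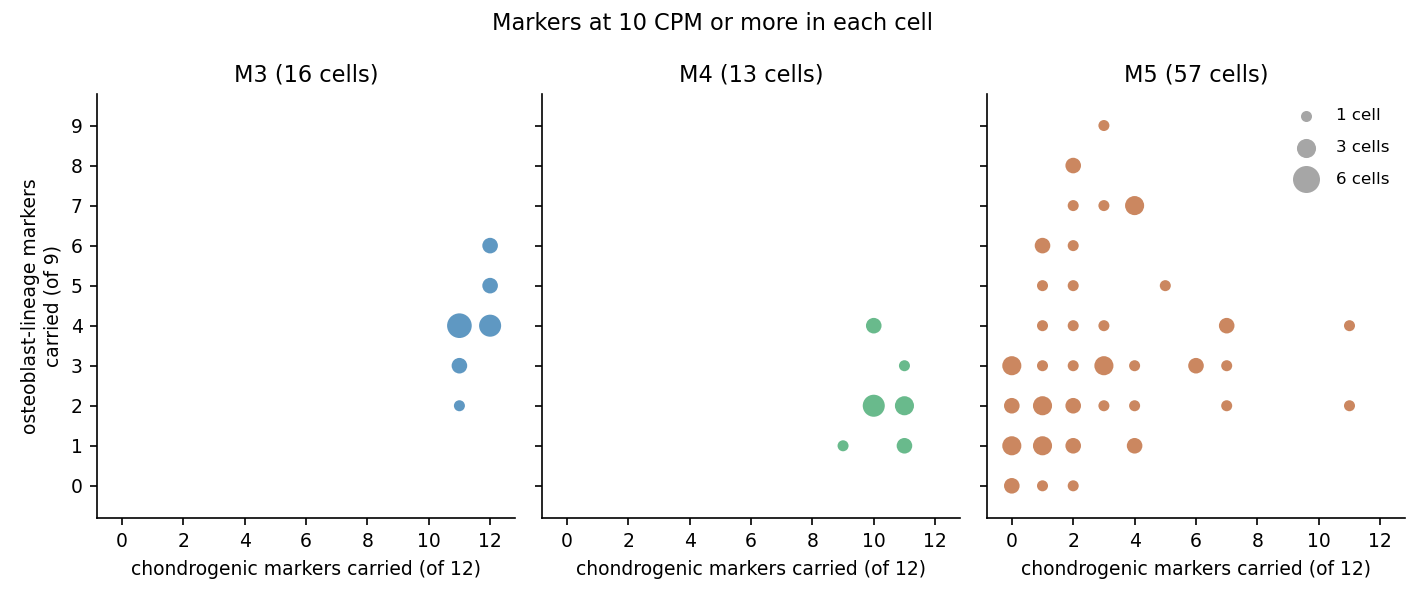
Number of 12 chondrogenic markers (horizontal axis) against number of 9 osteoprogenitor and osteoblast markers (vertical axis) carried by cells of M3, M4 and M5. Larger points stand for more cells with the same numbers, and M3 and M4 cells lie at 9 or more chondrogenic markers, with M5 cells spread over both axes and 2 of them at 10 or more.

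Across all genes M3 and M4 were lower than M5 more often than higher when all cells were used. Among young OPr cells this turned for M3 and M4 together, with 2355 genes higher and 1296 lower. It did not turn for M4 alone, with 986 higher and 1186 lower. Of 12984 genes compared for M3 and M4 together, 829 (6.38%) were at least 4-fold higher and 1753 (13.5%) at least 4-fold lower than in M5, with a median log2 ratio of -0.37. For M3 alone it was 714 (5.80%) and 2187 (17.8%) of 12320, median -0.51, and for M4 alone 652 (5.47%) and 2620 (22%) of 11928, median -0.50. Scaling by the mean of the cells' CPM moved these medians to -0.12, -0.28 and -0.26, so the median of all genes is repeated in each paragraph on a gene list. Between M3 and M4, 1190 (12.1%) of 9846 genes were higher in M3 and 920 (9.34%) lower, with a median of -0.04. All 12 chondrogenic markers were at least 4-fold higher in M3 and M4 together (median 5.70) and in M3 (6.54), and 11 of 11 compared in M4 (3.94). Of the 9 osteoprogenitor and osteoblast markers (3 guide genes) none was higher and 4 were lower in M3 and M4 together (median -1.01). In M3 it was 2 and 4 (-1.15), in M4 0 and 5 (-2.54). Guide genes made up 125 of the 829 higher and 129 of the 1753 lower genes, of 447 compared. Since the clusters were made from these genes, the counts measure how far apart the clusters lie and support nothing further.

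The cartilage collagens were far higher in M3 and M4 than in M5, and 7 of the 8 are guide genes. Of the 8, 7 were at least 4-fold higher in M3 and M4 together (6.38% of all genes), 7 in M3 (5.80%) and 7 in M4 (5.47%), where *Col10a1* was lower (22% of all genes). The median was 5.73 for M3 and M4 together, 6.39 for M3 and 4.03 for M4, against all-gene medians of -0.37, -0.51 and -0.50, and in range 1 it was 8.02 for M4. In M4 the count rests in part on the type XI chains, since *Col11a2* came within 4-fold under 7 of the alternatives and *Col11a1* under 4, both of them with median-of-ratios factors (0.94 and 1.39). Summed, the list had 89333 CPM in M3 (89154 to 89512), 14722 in M4 (14644 to 14800.2) and 1021 in M5 (1009 to 1034). M3 also stood above M4, with 5 of 8 collagens at least 4-fold higher (12.1% of all genes) and a median of 2.40.

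*Col9a1*, a chain of the type IX collagen that decorates type II fibrils, had 5119 CPM in M3 (cells 133, 4959.9 and 13412), 918 in M4 (157, 698 and 2093) and 2.58 in M5 (0, 0 and 136). It was carried by all cells of M3 and M4 and by 4 of 57 M5 cells, of which 1 lay above the lowest M3 cell and none above the lowest M4 cell. The other type IX chains followed, with *Col9a2* at 4895, 1856 and 16.7 CPM and *Col9a3* at 8662, 1694 and 28.3, of which 1 cell gave 81.8% in M5. The type XI chains, which set fibril width, differed less: *Col11a1* had 5168, 943 and 187 CPM and *Col11a2* 4997, 1405 and 305. *Col27a1*, another fibrillar collagen of cartilage, had 1647, 497 and 49. *Col10a1*, the collagen of hypertrophic chondrocytes, stood apart from the rest, with 498, 0.432 and 159 CPM. It rested on few cells, 5 of 16 in M3 with 87.9% of the counts in 1 cell, and 3 of 57 in M5 with 99.8% in 1 cell.

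Among 22 cartilage matrix proteins (17 of them guide genes), 15 were at least 4-fold higher in M3 and M4 together (6.38% of all genes) and none lower. The median was 3.65 (all genes -0.37; 5.62 in range 1). Against M5, M3 had 14 higher and 2 lower (5.80% and 17.8% of all genes; median 3.48, all genes -0.51). M4 had 15 of 21 higher (5.47% of all genes) and none lower (median 2.91, all genes -0.50). *Acan*, the core protein of aggrecan, had 6146 CPM in M3 (cells 3047, 6118 and 10558), 2110.0 in M4 (686, 1626 and 4788) and 137 in M5 (0, 0 and 2836). No M5 cell reached the lowest M3 cell, 4 lay above the lowest M4 cell, and 11 of 57 carried the gene. *Hapln1*, the link protein that ties aggrecan to hyaluronan, had 3899.7, 789 and 33.7 CPM, and *Lect1*, an inhibitor of vessel growth in cartilage, 10837, 4024 and 60.3. *Epyc*, a small proteoglycan of growth cartilage, had 835, 125 and 0.832, carried by 16 of 16, 2 of 13 and 4 of 57 cells. *Ucma*, a cartilage protein rich in carboxylated glutamate, had 1101, 814 and 117, and 89.2% of the M5 counts came from 1 cell.

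Some matrix genes were shared more widely. *Comp*, a protein that binds collagen fibrils, had 11963 CPM in M3 (cells 1923, 13499.6 and 19167), 10095 in M4 (1572, 8435 and 21505) and 2411 in M5 (0, 12.3 and 21915). M5 cells spanned the whole range, and 32 of 57 carried it. Its log2 ratios to M5, 2.31 in M3 and 2.07 in M4, came within 4-fold in young cells (1.65 and 1.22) and in range 1 (1.66 and 1.95). *Chad*, a leucine-rich matrix protein, was as high in M4 as in M3, at 18189, 20829.6 and 2079.8 CPM. *Cytl1*, a small secreted protein of cartilage, was higher in M4, with 2695, 21277 and 695 CPM. *Fmod*, a proteoglycan of collagen fibrils, had 4203, 10371 and 2181, with 78.8% of the M5 counts in 1 cell, and its order turned between ranges. In range 1 *Fmod* had 5103, 2806 and 6152 CPM, in range 2 3923, 14749.7 and 629.9. Between M3 and M4 the list split, with 6 of 22 genes higher in M3 and 3 lower (12.1% and 9.34% of all genes; median 0.54, all genes -0.04).

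The 16 chondrogenic transcription factors and partners that could be compared (7 of them guide genes) had 9 higher and 1 lower in M3 and M4 together (6.38% and 13.5% of all genes), median 2.43. In M3 it was likewise 9 and 1 of 16 (5.80% and 17.8% of all genes; median 2.66), in M4 6 and 2 of 13 (5.47% and 22%; median 1.57). All-gene medians were -0.37, -0.51 and -0.50. *Sox9*, the regulator of chondrocyte fate, had 2058 CPM in M3 (cells 210.2, 1898 and 6752), 672 in M4 (12.0, 439 and 2726) and 92.5 in M5 (0, 7.52 and 566). It was carried by all M3 and M4 cells and by 26 of 57 M5 cells (45.6%, 32.4% to 59.3%), and 9 M5 cells lay above the lowest M3 cell. The log2 ratio of M4 to M5 was 2.85, but 0.90 in range 1 and 1.63 in young OPr cells. *Sox5* had 264, 219 and 41 CPM and *Sox6* 124 in M3 and 36.9 in M5, and both partners differed little between M3 and M4 (log2 0.27 and 0.28). *Foxa3*, a forkhead factor, had 114 CPM in M3, carried by 15 of 16 cells, 34.8 in M4 and no count in 57 M5 cells, an upper limit of 0.119 CPM taken as 3 counts. *Runx3*, a RUNX factor of maturing cartilage, had 114 CPM in M3, carried by 14 of 16 cells, 0.216 in M4 and 10.8 in M5. *Wwp2*, a ubiquitin ligase that SOX9 controls in cartilage, had 814, 1177 and 128. Between M3 and M4, 2 of 16 genes of this list were higher in M3 and 1 lower, with a median of 0.65 (all genes -0.04). Over all genes it was 12.1% and 9.34%, so these counts do not set the list apart.

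Genes of osteoblast differentiation and mineralisation gave a different picture by each measure. In summed counts, of 25 genes compared of 31 listed (6 guide genes), 4 were higher and 14 lower in M3 and M4 together (6.38% and 13.5% of all genes), with a median of -2.27 (all genes -0.37). It was 6 and 13 in M3 (5.80% and 17.8% of all genes; median -2.20, all genes -0.51). In M4 it was 2 and 14 (5.47% and 22%; median -2.67, all genes -0.50), with 9 genes of the list without a count. Counted per cell, the median was highest in M3, which carried 9 to 15 of the 31 genes (median 12.5), against 6 to 11 in M4 (median 7.00) and 1 to 23 in M5 (median 7.00). The summed level also ran from M3 down, at 49689 CPM in M3, 28115 in M4 and 27265 in M5. *Sparc*, a collagen-binding protein of bone and cartilage alike, made up 84.1%, 72.5% and 28.7% of those sums, with 41768, 20383 and 7812 CPM.

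Type I collagen was higher in M5 than in M3 and M4. *Col1a1* had 6.98 CPM in M3 (cells 0, 2.32 and 71.5), a level between 94.3 and 107 by its interval in M4 (cells 0.793, 1.5 and 1048) and 6914 in M5 (0, 417 and 101996). It was carried by 1 of 16, 2 of 13 and 45 of 57 cells (78.9%, 66.1% to 88.6%), and 98.2% of the M4 counts came from 1 cell, the mOPr cell of M4. Of M5, 39 cells lay above the highest M3 cell and 24 above the highest M4 cell, so the clusters overlapped at the low end. Its partner chain *Col1a2* had 86.6, 979 and 6238 CPM.

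In M3 the bone regulators *Runx2* and *Sp7* did not follow type I collagen, whereas in M4 both were lower than in M5. *Runx2* had 233 CPM in M3 (cells 16.8, 240.1 and 487), 57.7 in M4 (0, 1.32 and 558) and 194 in M5 (0, 0 and 3259.9), carried by 16 of 16, 5 of 13 and 23 of 57 cells. *Sp7*, which acts after RUNX2 in osteoblasts, had 85.4 CPM in M3 (80 to 91.1; cells 0, 77.8 and 231), 0.971 in M4 (0.444 to 1.84; 0, 0 and 6.60) and 19.3 in M5 (17.7 to 21.1; 0, 0 and 298). M3 was high in *Sp7*, with 13 of 16 cells carrying it (81.2%, 54.4% to 96.0%), against 6 of 57 in M5 (10.5%, 3.96% to 21.5%) and none of 13 in M4 (0, up to 24.7%). The log2 ratio of M3 to M5 was 2.09 for *Sp7* and 0.26 for *Runx2*. For *Sp7* it fell within 4-fold under several alternatives, to 1.60 in range 1.

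Late osteoblast products varied from gene to gene. *Bglap*, or osteocalcin, had 273 CPM in M3 (carried by 14 of 16 cells), 0.216 in M4 (0 of 13) and 608 in M5 (19 of 57; highest cell 14389.6). Against M5 the log2 ratio of M3 and M4 together was -2.04, and within 4-fold under 6 alternatives (-0.23 in OPr cells). Reads of *Bglap*, *Bglap2* and *Bglap3* are hard to keep apart, since these genes are near-identical copies. *Spp1*, or osteopontin, had 1.86 CPM in M3 (cells 0, 1.45 and 9.07), 2099 in M4 (0, 482 and 16002) and 1965 in M5 (0, 8.55 and 41763). It was low in all M3 cells and carried by 9 of 13 M4 and 27 of 57 M5 cells, so its M5 level comes from less than the full cluster. *Ibsp*, a sialoprotein of bone, had 632, 1338 and 734, and 99.2% of the M3 counts came from 1 cell. *Omd*, a proteoglycan of mineralised matrix, had 133, 1816 and 178. *Ifitm5*, a membrane protein of osteoblasts, had 1.3, 0.432 and 53.1, carried by 7 of 57 M5 cells, and *Dmp1*, a matrix protein of osteocytes, 2.14, 0 and 18.7, carried by 4 of 57. *Dlx5*, a homeobox factor, had 26, 20.3 and 123, carried by 14 of 57 M5 cells, but in range 1 M4 did not differ from M5 in it (52.1 and 53.5 CPM, log2 -0.04).

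Pairs of genes were also counted in the same cell. Where all cells of a cluster carry a gene, a pair only repeats the count of the other gene. That holds for *Col2a1* and *Sox9* in M3 and M4 and for *Runx2* in M3. Numbers to expect of unrelated genes were not worked out. *Col2a1* and *Alpl* were both carried by 15 of 16 M3, 2 of 13 M4 and 8 of 57 M5 cells, and *Col2a1* and *Sp7* by 13, 0 and 3. *Sox9* and *Runx2* met in 16, 5 and 11 cells. *Runx2* and *Sp7* met in 13, 0 and 6 cells. M3 cells thus held cartilage matrix genes and early bone regulators together. Type I collagen was not part of that overlap: *Col2a1* and *Col1a1* met in 1, 2 and 13 cells, so in M5 they met in 13 of the 19 cells with *Col2a1*. Of all M5 cells, 45 of 57 carried *Col1a1*. *Bglap* met *Alpl* in 13, 0 and 11 cells, and met *Col1a1* in 1, 0 and 18. *Matn3* and *Wif1* met in 3, 6 and 1 cells.

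Genes of hypertrophic and mineralising cartilage divided M3 from M4. Of the 16 genes compared (7 guide genes), 6 were higher and 1 lower in M3 and M4 together (6.38% and 13.5% of all genes), median 1.21 (all genes -0.37). In M3 it was 6 and 2 of 15 (5.80% and 17.8% of all genes; median 1.65, all genes -0.51). In M4 it was 2 and 3 of 14 (5.47% and 22%; median -0.94, all genes -0.50), the lower count being near the share of all genes. M3 had 8 higher and 2 lower than M4 of 16 (12.1% and 9.34% of all genes), median 2.25 (all genes -0.04). *Pth1r*, the receptor of parathyroid hormone and of its cartilage relative PTHrP, had 1772, 203 and 389 CPM, carried by 16 of 16, 7 of 13 and 21 of 57 cells. *Panx3*, a channel protein of maturing chondrocytes and osteoblasts, had 1036 CPM in M3, carried by 14 of 16 cells, against 0.108 in M4 and 23.3 in M5. *Smpd3*, a sphingomyelinase needed for mineralising cartilage and bone, had 2057, 9.71 and 27.5, and *Slc13a5*, a citrate transporter, 198, 1.19 and 11.9. The enzyme *Mmp13* and the signal *Ihh*, both of late chondrocytes, were low in M3 and M4: *Mmp13* had 0.465, 25.5 and 308 CPM. *Ihh* had 10.1 in M3, carried by 3 of 16 cells, 0.971 in M4 and no count in M5 (upper limit 0.119).

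The articular surface list (5 guide genes) was low in M3 and not in M4 when all cells were used. It had no gene at least 4-fold higher than in M5 in any comparison, and 3 of 11 lower in M3 and M4 together (median -0.41), 8 of 11 in M3 (median -2.67) and 3 of 11 in M4 (median -0.68). Over all genes 13.5%, 17.8% and 22% were lower, with medians of -0.37, -0.51 and -0.50. By these values M4, and M3 and M4 together, lay near all genes. Summed levels were 2014 CPM in M3, 33192 in M4 and 12057 in M5, with 54.5% of the M4 sum from *Prg4*. A cell carried a median of 3.00 of the 12 genes in M3, 4.00 in M4 and 3.00 in M5. In range 1 the list medians were -3.89 for M3 and M4 together and -4.29 for M4. Of 10 genes, 6 were lower in M3 than in M4 and 1 higher (9.34% and 12.1% of all genes), with a median of -3.44 (all genes -0.04). *Clu*, a secreted chaperone found in surface cartilage, had 22.7 CPM in M3 (cells 1.33, 9.27 and 187), 12157 in M4 (71.3, 8186 and 48325) and 3274 in M5 (0, 11.0 and 55893). All 13 M4 cells and 8 of 16 M3 cells carried it, 1 M3 cell lay above the lowest M4 cell, and M5 covered both ranges. *Prg4*, the lubricin of joint surfaces, had 402, 18103 and 5537 CPM, but 1 cell gave 94.6% of the M4 counts and 1 cell 50.1% of the M5 counts. *Cilp2*, a matrix protein of articular cartilage, had 53.6, 686 and 347, carried by 12 of 13 M4 cells.

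**Figure D3:**
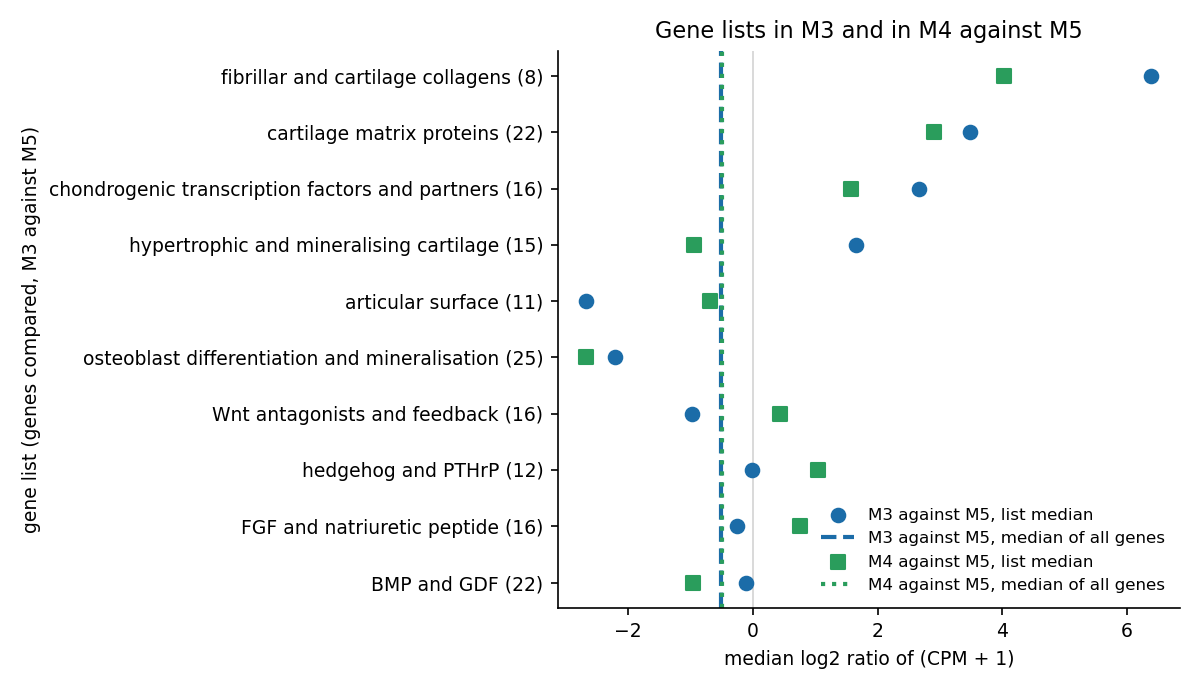
Median log2 ratio of CPM + 1 to M5 (horizontal axis) for 10 gene lists (vertical axis), in M3 and in M4, with dashed and dotted lines at the medians of all genes (-0.51 and -0.50). Collagens lie highest (6.39 in M3 and 4.03 in M4), and the hypertrophic list lies above 0 in M3 (1.65) and below it in M4 (-0.94).

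Wnt genes, of which 16 of 20 could be compared (3 guide genes), went both ways: 5 higher and 4 lower in M3 and M4 together (median 0.16), 3 and 6 in M3 (median -0.98) and 5 and 5 of 15 in M4 (median 0.44). All-gene medians were -0.37, -0.51 and -0.50, with 6.38%, 5.80% and 5.47% of genes higher and 13.5%, 17.8% and 22% lower. The M3 median did not keep its sign: it was 2.70 in young OPr cells and -6.01 in range 1. The summed level was highest in M4, at 5759 CPM against 646 in M3 and 1822 in M5. The leading gene differed in each cluster. In M3 it was *Rspo4*, a secreted amplifier of Wnt signals, with 271 CPM and all 16 cells carrying it (32.9, 216 and 657), no count in M4 and 2 counts in M5 (0.0793). In M4 it was *Wif1*, and in M5 *Sfrp4*, a decoy for Wnt ligands, with 15.0, 1.94 and 906. *Frzb*, a Wnt decoy of cartilage, had 41.3, 1315 and 85.2, and *Dkk3*, of the Dickkopf family, 0.0930 (1 count), 282 and 199. *Notum*, an enzyme that inactivates Wnt ligands, had 66.5, 40.0 and 2.54. M3 against M4 had 4 higher and 5 lower of 13 (12.1% and 9.34% of all genes; median -1.66, all genes -0.04).

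Hedgehog and PTHrP genes (2 guide genes) had 4 higher and 3 lower of 13 compared in M3 and M4 together (6.38% and 13.5% of all genes; median 1.42, all genes -0.37). In M3 it was 3 and 4 of 12 (5.80% and 17.8% of all genes; median -0.01), in M4 4 and 2 of 12 (5.47% and 22%; median 1.05). The all-gene medians there were -0.51 and -0.50. *Ptch1*, the hedgehog receptor and a target of the pathway, had 358, 293 and 28.9 CPM, and *Gli1*, another target, 26.6, 28.7 and 2.93, so both were lowest in M5 over all cells. In range 1 this did not hold for *Gli1*, with 22.3 CPM in M3, 7.06 in M4 and 7.62 in M5. Others parted M3 from M4: *Gli2*, a transcription factor of the pathway, had 10.2, 189 and 18.8 CPM, *Boc*, a coreceptor, 8.65, 426 and 109, and *Gas1*, another coreceptor, 7.26, 122 and 457. M3 had 2 of 11 genes higher and 4 lower than M4 (12.1% and 9.34% of all genes; median -0.11, all genes -0.04).

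Of 16 genes of FGF and natriuretic peptide signalling (4 guide genes), 4 were higher and 1 lower in M3 and M4 together (6.38% and 13.5% of all genes; median 0.11, all genes -0.37). In M3 it was 4 and 5 (5.80% and 17.8% of all genes; median -0.25), in M4 4 and 1 of 12 (5.47% and 22%; median 0.75). The all-gene medians there were -0.51 and -0.50. *Fgfr3*, the FGF receptor that restrains growth cartilage, had 605 CPM in M3 and 519.8 in M4, above M5 by log2 2.56 and 2.34. In range 1 *Fgfr3* had 252 CPM in M4 and 144 in M5, a smaller difference. *Fgfr1* had 200.2, 717 and 389. *Prkg2*, the cGMP-dependent kinase that acts after natriuretic peptide in growth cartilage, was carried by all 16 M3 cells, with 966 CPM (259.5, 869 and 2934). No cell of M4 or M5 carried it, with 1 count in M4 and 0.317 CPM in M5. *Npr2*, the receptor of that peptide, was higher in M4, at 79.6, 334 and 54.8. M3 had 3 of 13 genes higher and 4 lower than M4 (12.1% and 9.34% of all genes; median -0.91, all genes -0.04).

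Among 23 BMP and GDF genes (4 guide genes) the counts were 3 higher and 4 lower in M3 and M4 together (6.38% and 13.5% of all genes; median 0.20, all genes -0.37). In M3 it was 6 and 6 of 22 (5.80% and 17.8% of all genes; median -0.10), in M4 2 and 5 of 22 (5.47% and 22%; median -0.96). The lower count in M4 is thus near the share of all genes. All-gene medians were -0.51 in M3 and -0.50 in M4. In range 1 the median for M3 and M4 together turned to -0.91. The ligands *Bmp6* (49.6, 0.539 and 0.713 CPM) and *Bmp7* (121, 20.9 and 24.1) were higher in M3, and *Bmp5* in M4 (18.2, 211 and 82.9). *Chrdl1*, a BMP antagonist, had 384, 30.6 and 53.7. The targets parted, with *Id1* at 139, 223 and 28.5 and *Id3* at 167, 431 and 1424. M3 had 6 of 19 genes higher and 2 lower than M4 (12.1% and 9.34% of all genes; median 0.62, all genes -0.04).

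Some genes that build and modify the matrix were higher in M3, while most of both lists lay within 4-fold. All-gene medians were -0.37 for M3 and M4 together, -0.51 for M3, -0.50 for M4 and -0.04 for M3 against M4, with 6.38%, 5.80%, 5.47% and 12.1% of genes higher and 13.5%, 17.8%, 22% and 9.34% lower. For chondroitin sulfate synthesis (2 guide genes), 7 of 22 genes were higher and none lower in M3 and M4 together (median 1.14), 8 and 1 in M3 (median 1.23) and 3 and 1 in M4 (median 0.89), with 3 higher and 1 lower in M3 than in M4 (median 0.63). Among young OPr cells the median for M3 and M4 together was 2.59. *Chst11*, a sulfotransferase that adds sulfate to chondroitin, had 1152, 276 and 23.1 CPM. *Papss2*, which makes the sulfate donor, had 1259, 155 and 62.5, *Xylt1*, which starts the sugar chain, 313, 55.5 and 30.7, and *Slc26a2*, the sulfate transporter, 540.3, 251 and 47.6. For collagen processing (1 guide gene) it was 4 and 2 of 29 in M3 and M4 together (median 1.22; 1.86 in OPr cells), 10 and 4 in M3 (median 1.08), 1 and 4 in M4 (median 0.06) and 6 and 3 of 27 in M3 against M4 (median 1.06). *Serpinh1*, the collagen chaperone, had 2847, 895 and 653, *Plod2*, a lysyl hydroxylase, 1112, 453 and 157, and *Pcolce2*, an enhancer of procollagen cleavage, 1143, 9.71 and 63.2. *Loxl1*, a lysyl oxidase of elastic fibres, went the other way (1.77, 11.4 and 153).

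Lists of general cell function had few genes past 4-fold in M3 and M4 together, except the proteases. Over all genes 6.38% were higher and 13.5% lower in M3 and M4 together, with a median of -0.37. Of 26 genes for folding and export in the endoplasmic reticulum, 1 was higher and none lower in M3 and M4 together (median 0.50; 0.99 in OPr and 1.15 in young OPr cells). That gene was *Creb3l2*, a transcription factor of secretory load in cartilage, with 424, 466 and 96.4 CPM. Of 22 glycolysis and hypoxia genes (3 guide genes), 1 was higher and 1 lower (median 0.80; 1.36 in OPr and 1.41 in young OPr cells), with the glucose transporter *Slc2a1* at 226, 137 and 45.6. Of 14 proliferation genes, 1 was higher and none lower (median -0.35), and 1 cell gave 99.3% of the M5 counts of *Mki67*. Taken apart, 4 of 8 were higher in M3 than in M4 and none lower (12.1% and 9.34% of all genes; median 1.64, all genes -0.04). Against M5, M4 had 2 of 8 lower and none higher (22% and 5.47% of all genes). In M3, 1 cell carried 15 of the 18 genes listed, against a median of 2.00. Of 18 immediate early genes (2 guide genes), none passed 4-fold (median -0.11, but 1.11 in OPr and 1.18 in young OPr cells), with *Fos* at 4617, 14559 and 9704, and their summed level was 16566 CPM in M3, 37015 in M4 and 26089.5 in M5. Of 17 matrix proteases and inhibitors (4 guide genes), 1 was higher and 4 lower (median -1.41). The gelatinase *Mmp2* had 224, 330.3 and 1977 CPM and the inhibitor *Timp1* 924, 123 and 115.

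By the median ratio of their lists, genes of fibroblasts and of marrow stroma were lower in M3 and M4, most of all in M3. Of 17 fibroblast and Sca-1 stroma genes (11 guide genes), 12 were lower and none higher in M3 and M4 together (13.5% of all genes; median -4.05, all genes -0.37), with summed levels of 1171, 5868 and 20616 CPM. The median was -5.57 in M3 and -3.44 in M4, or -6.85 and -3.96 where 3 counts stand in for a cluster without a count. Among OPr cells alone the median for M3 and M4 together was -1.16, and among young OPr cells -1.32. Per cell, M3 carried a median of 3.00 of the 18 genes, M4 4.00 and M5 5.00. Of 18 genes, 6 reached 10 CPM in M3, led by *Lum* (629), 9 in M4, led by *Dcn* (3937), and 16 in M5, led by *Dcn* (14349). *Dcn*, the decorin of loose connective tissue, had 360.1 CPM in M3. *Pdgfra*, a receptor used in the gates, had 2.88, 52.6 and 446 CPM. Of 15 genes of LepR marrow stroma (13 guide genes), 8 were lower and none higher (median -2.13), with medians of -3.86 in M3 and -2.48 in M4 and summed levels of 971, 3476 and 3970.3, and with 5, 7 and 12 genes at 10 CPM. A cell carried a median of 3.00 of these 15 genes in M3, 4.00 in M4 and 4.00 in M5, so M4 and M5 did not differ by that count. *Apoe* led in all 3 clusters (431, 2887 and 1567 CPM). *Cxcl12*, the chemokine that holds blood stem cells, had 21.1, 31.1 and 921 CPM, and although 51 of 57 M5 cells carried it, 1 cell gave 64.3% of the counts. *Lepr* itself had 1.86, 136 and 137 CPM, carried by 1 of 16, 9 of 13 and 20 of 57 cells, so M4 was near M5 and M3 was low.

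Most tendon and mural genes compared were below M5 by summed counts, while cells carried them in similar numbers. Of 7 tendon and ligament genes (2 guide genes), 4 were lower and none higher in M3 and M4 together (13.5% of all genes; median -2.54, all genes -0.37). The median was -2.20 in M3 and -2.44 in M4, with 3, 3 and 7 of 8 genes at 10 CPM and summed levels of 5798, 14529 and 7028. *Fmod*, shared with cartilage, led in M3 and M4, and *Egr1* in M5 (2748 CPM). *Tnmd*, the defining tendon protein tenomodulin, had 0.0930, 0.108 and 264, and *Kera* had no count in M3 or M4. A cell carried a median of 2.50 of the 8 genes in M3, 2.00 in M4 and 2.00 in M5. Of 9 mural and smooth muscle genes (3 guide genes), 8 were lower and 1 higher (median -4.80; -4.47 in M3 and -6.46 in M4), with 2, 1 and 9 of 10 genes at 10 CPM and summed levels of 1091, 919 and 3144. The higher gene was *Cspg4*, a proteoglycan of pericytes and also of cartilage, with 1038, 916 and 126 CPM. It made up 95.2% of the sum in M3 and 99.7% in M4, whereas in M5 the smooth muscle actin *Acta2* led with 1721 CPM, 63.1% of it from 1 cell. A cell carried a median of 1.00 of the 10 mural genes in each cluster, and of 57 M5 cells 18 carried none and 2 carried 5 or more.

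Of 19 genes of antigen presentation and interferon response (3 guide genes), 9 were lower and none higher in M3 and M4 together (13.5% of all genes; median -1.78, all genes -0.37), with summed levels of 1156, 1097 and 4095. *H2-D1*, a class I molecule whose reads are hard to keep from its relatives, led with 261, 338 and 1244 CPM. Among young OPr cells the median of the list was -0.61. Cells carried these genes in similar numbers, with a median of 7.00 of the 20 listed in M3, 6.00 in M4 and 6.00 in M5.

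Markers of cells outside the gates were low. Of 12 endothelial genes, 1 reached 10 CPM in M3, none in M4 and 2 in M5, with summed levels of 13.2, 7.88 and 81.6 CPM, led by *Vwf* in M3 (10.3) and M4 (3.67) and by *Esam* in M5 (42.4). *Kdr*, *Tek* and *Emcn* had no count in M3, and *Cdh5* and *Tie1* none in M4. Of 20 hematopoietic genes, 0, 0 and 3 reached 10 CPM, with sums of 7.44, 6.26 and 82.5, led by *Lyz2* in M3 (1.67) and M5 (22.8) and by *Itgam* in M4 (1.08). *Ptprc*, which encodes CD45, had 0.0930, 0.108 and 0.198, and 9, 8 and 4 of the 20 genes had no count. Of 7 erythroid genes, 1, 0 and 5 reached 10 CPM, with sums of 10.8, 3.56 and 236, led by *Alas2* in M3 (10.8) and M4 (2.48) and by *Slc4a1* in M5 (68.6). In M5, 50 of 57 cells carried no erythroid gene and 1 cell carried all 7. Of 8 osteoclast genes, 1, 2 and 2 reached 10 CPM, with sums of 80.6, 318 and 492, led by *Ctsk*, a protease that stromal cells also make (78.9, 287 and 436), and *Dcstamp* had no count in any cluster. Between M3 and M4 together and M5, no gene of these 4 lists was at least 4-fold higher, and 2 of 3 endothelial, 4 of 6 hematopoietic, 1 of 2 erythroid and 0 of 2 osteoclast genes compared were lower (medians -2.58, -3.13, -2.87 and -1.44; all genes -0.37 with 13.5% lower). Of the 2 osteoclast genes 1 is a guide gene. What part such RNA has in the M5 values was not tested.

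The named genes of each comparison are the 10 with the largest ratio in each direction that had at least 1000 counts, were carried by at least 50% of the cells of the higher group and kept their direction in both library-number ranges. Of the 10 highest in M3 and M4 together, 9 are guide genes. They are *Chil1*, *Col9a1*, *Slc38a3*, *Prkg2*, *Epyc*, *Syt8*, *Col9a2*, *Col9a3*, *Ppp1r1b* and *Rspo4*. *Chil1*, a chitinase-like protein that cartilage secretes, had 209 CPM in M3, 10553 in M4 (cells 0, 522 and 40830.5) and 1.23 in M5. It is the one not used as a guide, was carried by 9 of 13 M4 cells, took 41.7% of its M4 counts from 1 cell, and had 24348 CPM in range 1 of M4 against 2568 in range 2. *Slc38a3*, a glutamine transporter, had 514 CPM in M3 and M4 together and 1 count in M5. *Ppp1r1b*, a phosphatase inhibitor, had 220.2 and 0.515 (log2 7.19), and *Syt8*, a synaptotagmin, 286 and 0.238 (log2 7.86).

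The 10 lowest in M3 and M4 together were *Ifitm3*, *Col1a1*, *Ecm1*, *Serping1*, *Dpysl3*, *Ptprd*, *Lgals1*, *Cxcl12*, *Igfbp5* and *Tmsb4x*, of which 3 are guide genes. *Ifitm3*, an antiviral membrane protein, had 0.744 CPM in M3, 0.432 in M4 and 316 in M5, carried by 68.4% of M5 cells. *Serping1*, the C1 inhibitor of complement, had 2.33, 64.7 and 2105, and *Igfbp5*, a binding protein of insulin-like growth factors, 3.44 in M3, between 97.7 and 111 by its interval in M4 and 1394 in M5. *Ecm1*, a secreted matrix protein, had 4.00, 1.83 and 519 (log2 -7.02 over all cells, -1.66 in young OPr cells), and *Tmsb4x*, which binds actin monomers, 20.4, 29.8 and 568. M5 was the highest of the 3 clusters for each of these genes, and M4 lay above M3 for *Serping1* and *Igfbp5*. Against M3 alone, M5 also led in *Col3a1*, a collagen of soft connective tissue (1.95 and 2037 CPM, log2 -9.43), and in *Pdgfrb*, a receptor of mural and stromal cells (1.77 and 389.8, log2 -7.14). *Sulf1*, which removes sulfate from heparan chains (0.837 and 231, log2 -6.98), was low in M3 as well. Against M4 alone, *Nav1* (6.15 and 192, log2 -4.76) and *Marcks*, which binds actin and membranes (5.83 and 144, log2 -4.41), were among the lowest. M4 was higher in *Itih5l-ps* (571 and 2.81, log2 7.23), *Thsd4*, a protein of microfibrils (278 and 0.912, log2 7.19), *Sim2*, a transcription factor (179 and 0.238, log2 7.18), and *Cemip*, which breaks down hyaluronan (847 and 7.25, log2 6.68).

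M3 and M4 shared the cartilage genes at unequal levels. Of the 12 chondrogenic markers 7 were at least 4-fold higher in M3 (12.1% of all genes) and none lower (median 2.33, all genes -0.04). They differed further in other genes. Among the highest in M3 against M4 were *Serpina1d*, *Panx3*, *Prkg2*, *Fxyd2*, *Serpina1a*, *Serpina1b*, *Car12*, *Msmo1* and *Rspo4*, of which 7 are guide genes. *Serpina1d*, a copy of the alpha-1-antitrypsin gene, had 1857 CPM in M3 and 2 counts in M4. Its copies *Serpina1a* (545 CPM, at least 1683-fold) and *Serpina1b* (411, at least 1271-fold) had none in M4, and reads of these near-identical genes are hard to tell apart. *Car12*, a carbonic anhydrase (375 CPM, at least 1159.9-fold), also had no count in M4, where *Rspo4* differed by at least 837-fold. *Fxyd2*, a regulator of the sodium pump, had 1070.1 CPM in M3 and 0.432 in M4. *Msmo1*, an enzyme of cholesterol synthesis, had 388 CPM in M3 and 1 count in M4.

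The 10 lowest in M3 against M4 were *Spp1*, *Clu*, *Cacna1e*, *Adamtsl3*, *Dkk3*, *Gm525*, *Rbp4*, *Sparcl1*, *Dchs2* and *Serpine2*, of which 2 are guide genes. *Cacna1e*, a calcium channel, had 302 CPM in M4 and *Adamtsl3*, a matrix protein related to proteases, 316, with 1 and 2 counts in M3. *Rbp4*, the carrier of retinol, had 1.49 CPM in M3 and 459 in M4 (log2 -7.53), and *Serpine2*, a protease inhibitor, 9.58 and 1195 (log2 -6.82). *Sparcl1*, a relative of *Sparc*, had 4.47 and 951 (log2 -7.44). *Gm525* (212 CPM, at least 759-fold) and *Dchs2*, a large cadherin (158, at least 564-fold), had no count in M3. Leaving out, for each gene, the highest cell of each cluster moved the number of genes higher in M3 from 1190 to 2068.

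**Figure D4:**
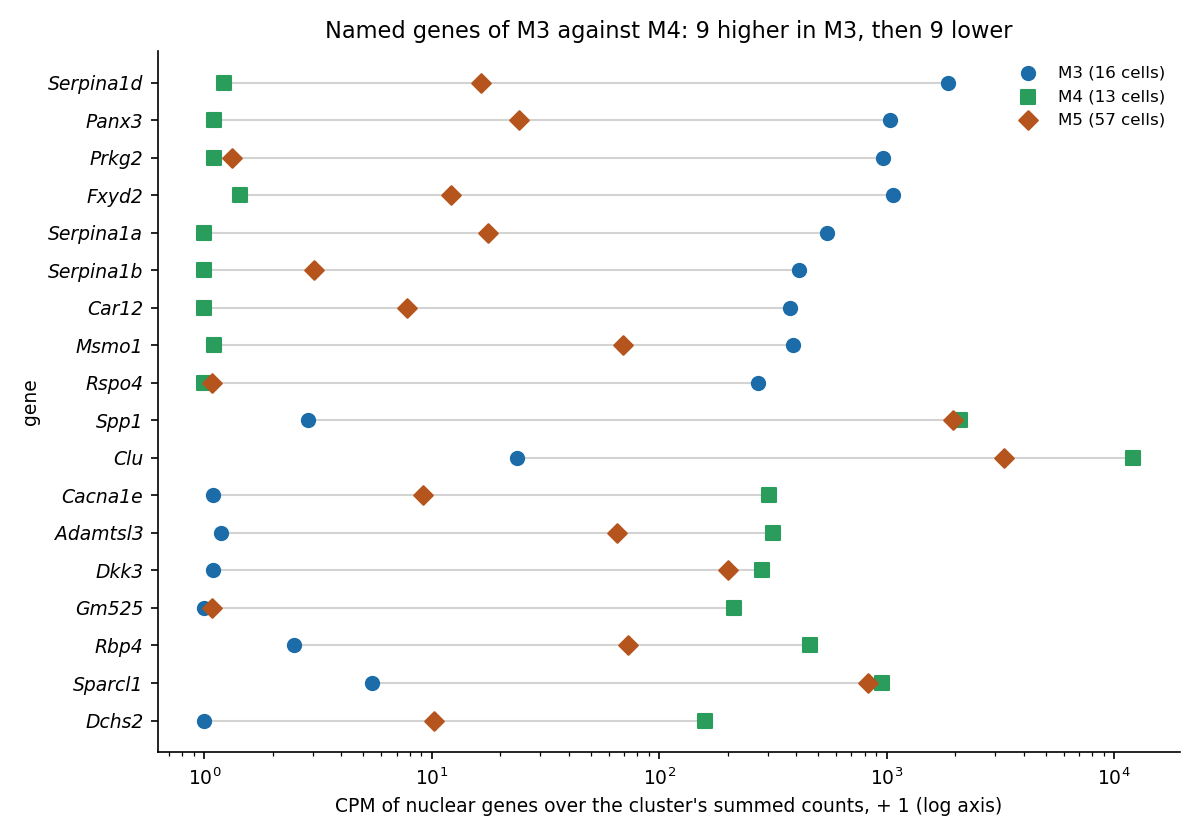
CPM + 1 over summed counts (horizontal log axis) of 18 named genes of M3 against M4, the 9 with the largest ratio in each direction (vertical axis), with a point for each of M3, M4 and M5. M3 stands apart for *Prkg2* (966 CPM against 0.108 in M4), and M4 for *Clu* (12157 against 22.7 in M3), with M5 between them for all 18 genes.

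Age and gate could be followed within clusters only in small groups. The single old M3 cell had 620.0 CPM of *Col2a1*, the lowest of M3, against 62677 over the 15 young cells, while its *Acan*, 3047, was nearer the others. In M4, the 4 old cells had 5242 CPM of *Col2a1* and 3425 of *Wif1*, and the 9 young cells 8050.2 and 3927. *Alpl* was all but absent from OPr cells of M4 (0.934 CPM, carried by 0 of 10), its counts lying in the young MSC-S cell (1191) and the young mOPr cell (237).

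In M5, too, levels differed between gates and ages. The 14 young OPr cells had 1050.4 CPM of *Col2a1*, carried by 13 of 14, against 508 in all young M5 cells and 3.6 in old ones, where 3 of 26 carried it. *Acan* had 427 CPM in young OPr cells and 0.428 over all old M5 cells, none of which carried it. *Wif1* was 540.2 in young OPr cells of M5, carried by 8 of 14. Young mOPr cells of M5, 7 in number, leaned to bone genes, with a median of 7.00 of the 9 osteoprogenitor and osteoblast markers (2 to 9), against 2.00 in old mOPr cells and 3.00 in young OPr cells. They had 17149 CPM of *Col1a1* and 2704 of *Bglap*, against 8522 and 603 in the 12 old mOPr cells. The median number of chondrogenic markers was 4.00 in young OPr, 1.00 in old OPr, 2.00 in young mOPr and 1.00 in old mOPr cells of M5.

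Kept to young OPr cells (15 of M3, 7 of M4 and 14 of M5), the balance of the comparison changed. The median over all genes rose from -0.37 to 0.16, and 64.5% of the genes past 4-fold were higher in M3 and M4 together, against 32.1% with all cells. The young OPr cells of M5 had a median of 352588 nuclear counts and a median mitochondrial share of 5.62%. Of the genes past 4-fold, 50.8% were higher in M3 and M4 within OPr cells of both ages, and 43.8% within young cells of all gates. Age, gate, depth and cluster cannot be told apart by these groups.

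Library-number ranges 1 and 2 hold 3 and 13 cells of M3, 4 and 9 of M4 and 16 and 41 of M5, and what the ranges stand for is not given. *Col2a1* had 62939.9 and 56918 CPM in ranges 1 and 2 of M3, 10493 and 5624 in M4 and 24.3 and 372 in M5. *Matn3* had 3409.8 and 2705 in M3, 308 and 134 in M4 and 0.141 and 35.3 in M5. *Alpl* had 1565 and 1998 in M3, 1.18 and 184 in M4 and 918 and 282 in M5. *Wif1* had 0.784 and 142 in M3, 6116 and 2478 in M4 and 259 and 188 in M5. The order of M3, M4 and M5 was the same in both ranges for *Col2a1* and *Matn3*, and M4 led in both for *Wif1*. For *Alpl* M3 led in both.

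Among the other clusters, M15, M12 and M1 were looked at as neighbours. M15 (17 cells) carried 3 to 10 of the 12 chondrogenic markers (median 6.00), M12 (27 cells) 0 to 4 (median 2.00) and M1 (86 cells) 0 to 7 (median 1.00). M15 had *Hapln1* in 17 of 17 cells (662 CPM) and *Comp* at 10812 CPM, near M3 and M4, but *Col2a1* in 8 of 17 (1727) and *Matn3* at 0.248. Other genes of M3 and M4 were found in M15 as well: *Acan* in 15 of 17 cells (1528 CPM), *Sox9* in 16 of 17 (895, above M4), *Clu* in 17 of 17 (cells 15.6, 21979 and 99179, summed level above M4) and *Wif1* in 13 of 17 (693; cells 0, 409 and 3785). *Wif1* was also carried by 45 of 86 M1 cells (120.2 CPM). M1 carried *Runx2* in 86 of 86 cells (406 CPM) and a median of 5.00 of the osteoprogenitor and osteoblast markers, more than M5, with *Alpl* in 35 of 86.

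Since the cartilage genes stood high together, their promoter windows were searched for letters that SOX and RUNX factors are known to prefer. Windows of 300 bases (250 before to 50 after a start) came from RefSeq, build GRCm38.p6, and 35 of the 47 cartilage genes matched, with 49 windows; *Col2a1* is not among them. ACAAAG or AACAAT, on either strand, was found in 13 of the 49 (26.5%) and in 8881 of all 32851 windows (27%). AACCAC, on either strand, was found in 6 (12.2%) and in 4270 of all windows (13.0%). The shares of the cartilage genes were thus those of promoters in general, and a match is a run of letters and no shown site. Windows of *Epyc* (chr10:97646853-97647152, plus strand, 4 SOX matches) and *Alpl* (chr4:137766426-137766725, minus strand, 2 SOX matches) are printed as a cartilage gene and the bone gene that M3 shared. *Col9a1* (chr1:24177360-24177659, plus strand, 1 RUNX match) is the collagen with the largest ratio of M3 to M5, and *Hapln1* (chr13:89540386-89540685, plus strand, 1 RUNX match) a matrix gene of both. Capitals mark the matches, and the windows of *Matn3* and *Wif1* hold neither. *Epyc*, *Alpl* and *Col9a1* each have another window, not printed, with fewer matches. It holds 2 SOX matches for *Epyc*, 1 for *Alpl* and no match of either kind for *Col9a1*.
Epyc: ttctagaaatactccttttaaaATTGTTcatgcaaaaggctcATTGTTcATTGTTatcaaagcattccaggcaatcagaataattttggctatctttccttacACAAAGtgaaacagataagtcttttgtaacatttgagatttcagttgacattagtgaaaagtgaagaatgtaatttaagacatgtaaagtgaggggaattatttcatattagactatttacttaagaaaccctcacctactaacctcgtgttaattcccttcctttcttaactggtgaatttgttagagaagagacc
Alpl: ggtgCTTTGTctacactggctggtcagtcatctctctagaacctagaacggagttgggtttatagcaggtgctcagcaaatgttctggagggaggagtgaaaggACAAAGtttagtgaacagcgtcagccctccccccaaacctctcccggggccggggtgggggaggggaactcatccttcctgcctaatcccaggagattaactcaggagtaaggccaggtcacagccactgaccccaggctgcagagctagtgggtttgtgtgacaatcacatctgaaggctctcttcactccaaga
Col9a1: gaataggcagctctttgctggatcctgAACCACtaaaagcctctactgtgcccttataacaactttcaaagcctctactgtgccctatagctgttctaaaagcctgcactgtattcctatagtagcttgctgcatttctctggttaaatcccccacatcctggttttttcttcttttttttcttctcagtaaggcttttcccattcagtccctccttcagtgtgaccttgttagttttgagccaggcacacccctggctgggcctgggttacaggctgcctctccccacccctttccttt
Hapln1: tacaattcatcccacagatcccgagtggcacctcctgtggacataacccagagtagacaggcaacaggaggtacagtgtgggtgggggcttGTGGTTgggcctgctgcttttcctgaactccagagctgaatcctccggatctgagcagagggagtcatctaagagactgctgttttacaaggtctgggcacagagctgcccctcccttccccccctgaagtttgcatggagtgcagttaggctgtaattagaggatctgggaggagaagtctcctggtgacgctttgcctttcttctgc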

How the data were processed

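The deposited counts per gene are whole numbers that the authors made with HTSeq, without strand, from alignments of GSNAP 2015-09-29 on the GRCm38.p4 genome. Overlapping or antisense genes therefore cannot be told apart. The file holds 46078 gene entries for 661 cells, and 270 repeated symbols were summed, which left 45771 nuclear and 37 mitochondrial genes. The columns of 437 cells of other clusters were not used. The members and the 26 gene lists (435 different genes) were chosen with earlier results of these data known. Listed symbols were looked up under other names for Snorc, Lepre1, Leprel1, Leprel2 and Leprel4. Doublets were not called.

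Counts were summed per cluster and scaled to CPM of nuclear genes, with a pseudocount of 1 CPM in ratios. A gene was compared with at least 100 counts over both groups and counts in at least 5 cells. Genes named outside the lists follow the rule of 10 per direction given in the text, with at least 3 cells per range, and some of them are not shown. A group without a count took 3 counts in its place, and ratios to 1 to 3 counts are not given. Intervals of list medians are those of order statistics. The 14 alternatives were the mean of CPM, median-of-ratios factors, thinning to 100000 counts, pseudocounts of 0.1 and 10 CPM, no filter, each library-number range, OPr cells, young cells, young OPr cells, Il1b-high cells kept, at least 7 hematopoietic genes in place of Il1b, and the highest cell left out. The steps were tested on simulated data. Scripts ran in Python 3.11.15 with pandas 2.3.3 for tables, numpy 2.4.6 and scipy 1.17.1 for numerics and intervals, and matplotlib 3.10.9 for plots.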

Additional observations from a re-analysis of the deposited data

How the results depend on the processing

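Of 112 counts of genes past 4-fold under the 14 alternatives, 89 stayed within 1.5 times the value given in the text, though not always with the same genes. In range 1, 893 genes were higher in M3 and M4 together, 233 of them among the 829 (28.1%). It was 168 of 652 (25.8%) in M4 against M5 and 123 of 1190 (10.3%) in M3 against M4. With a pseudocount of 10 CPM the counts fell to 243 higher and 513 lower in M3 and M4 together, 283 and 730 in M3 against M5, 246 and 729 in M4 against M5 and 307 and 354 in M3 against M4. That follows from its construction, since a larger pseudocount shrinks ratios of low genes. With no filter they were 1108 higher in M3 and 1106 higher in M4 than in M5, and 2139 higher and 1639 lower in M3 than in M4. In OPr cells 1516 were higher in M3 and M4 together and 1185 in M3, and 1688 were lower in M4. In young OPr cells 2355 were higher in M3 and M4 together, 1946 higher and 1419 lower in M3, and 986 higher and 1186 lower in M4. In range 1 there were 460 higher and 479 lower in M3 than in M4, and 2068 higher with the highest cell left out.

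For 46 of the list medians the alternatives were run, and 625 of their 644 values stayed within the interval of the main value. Intervals of short lists are wide, for example -6.80 to 8.01 for collagens in M4 against M5, so staying within them says little. The other medians printed were not rerun. In range 1 the others were collagens in M4 (8.02), cartilage matrix (5.62), articular surface (-3.89, and -4.29 in M4), Wnt in M3 (-6.01), BMP (-0.91) and fibroblast genes (-5.45). In young OPr cells they were Wnt in M3 (2.70), chondroitin (2.59), ER (1.15), glycolysis (1.41), immediate early (1.18), antigen presentation (-0.61) and fibroblast genes (-1.32). In OPr cells they were collagen processing (1.86), ER (0.99), glycolysis (1.36), immediate early (1.11) and fibroblast genes (-1.16). Lists without a cluster named are for M3 and M4 together.

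Of 1794 values for 132 gene results past 4-fold, 1736 stayed past it the same way, 57 came within 4-fold, and 1 turned: *Col1a1* in M3 against M4, 0.21 with the highest cell left out. That setting leaves out the M4 cell at 1048 CPM, which gave nearly all M4 counts of *Col1a1*. Why the 57 came within 4-fold was not tested. Cells with at least 7 hematopoietic genes were the same 8 as those chosen by *Il1b*. That alternative therefore repeats the main values by construction, and it is counted in the totals above. No paired analysis was possible because the labels name no mouse and each cluster is 1 sample.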
